A study of Mus musculus with 9 samples.

Results

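The genes of the T-cell receptor complex and its first signalling steps were read in whole mandibles of mice. The set held 10 genes, taken by symbol from a raw count table of 27179 genes: the CD3 chains *Cd3d*, *Cd3e* and *Cd3g*, the zeta chain *Cd247*, the coreceptors *Cd4*, *Cd8a* and *Cd8b1*, the costimulatory receptor *Cd28*, and the kinases *Lck* and *Zap70*. All 10 symbols were present. Whole mandibles with their teeth were pulverized, and poly(A) RNA from 5 WT controls and from 4 mice labelled *FcγRIIB*-/- was sequenced, with 1 library per mouse. All animals were males of 6 months on the C57BL/6 background. *FcγRIIB* encodes the inhibitory Fc receptor for IgG, and the label denotes a germline deletion rather than one driven in a chosen lineage. Because the RNA came from a mixed tissue of bone, teeth, marrow, muscle and oral epithelium, fewer T cells and less T-cell RNA per cell cannot be told apart.

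The T-cell receptor binds a peptide held by an MHC molecule, and its own chains carry almost no signalling tail. The CD3 gamma, delta and epsilon chains and the zeta chain bring the tyrosine motifs that the kinase Lck phosphorylates. The kinase Zap70 then docks on them and passes the signal to adaptors such as Lat. CD4 and CD8 bind the MHC molecule beside the receptor and hold Lck, and CD28 gives the costimulatory signal. The set does not mark T cells alone, since *Cd247*, *Lck* and *Zap70* are also used by natural killer cells, and *Cd4* and *Cd8a* by some dendritic cells.

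Total assigned counts ran from 24158960 to 26787359 in WT libraries and from 21453880 to 28991631 in libraries labelled *FcγRIIB*-/-. The targeted gene did not follow the labels. *Fcgr2b* counts were 577, 954, 442, 630 and 529 in WT replicates 1 to 5 and 757, 562, 628 and 634 in the labelled libraries, with a log2 fold change of 0.21 (SE 0.20, edgeR adjusted p = 0.442), and 0.46 without WT replicate 2 (adjusted p = 0.0131). The libraries are therefore called by their labels throughout. WT replicate 2 stood apart from every other library in lymphocyte genes, so each result on the 10 genes is given with and without it. Bone and tooth markers checked the tissue, with summed levels from 51198 to 85002 CPM. CPM here is a count scaled to the TMM-normalized library size in units of 1e6 counts.

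The CD3 chains sit together on mouse chromosome 9, and their promoters are shown because the 3 genes were high together in WT replicate 2. In RefSeq on GRCm38.p6 (mm10), *Cd3g* lies at chr9:44969572-44980431 on the minus strand, *Cd3d* at chr9:44981769-44987052 on the plus strand and *Cd3e* at chr9:44998735-45009663 on the minus strand. The starts of *Cd3g* and *Cd3d* are 1338 bases apart and point away from each other, and the cluster spans 40092 bases. The other genes are scattered: *Cd247* at chr1:165779952-165871153, *Cd28* at chr1:60746388-60773359, *Zap70* at chr1:36761798-36782821, *Lck* at chr4:129548344-129573641, *Cd8b1* at chr6:71322788-71337492, *Cd8a* at chr6:71373427-71379171 and *Cd4* at chr6:124864693-124888247. RefSeq promoter windows were at hand for 7 of the 10 genes.

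The RefSeq sequences upstream of the CD3 genes are printed 5′ to 3′ on the strand of the gene, with motif matches in capitals. They lie at chr9:44980432-44980681 (*Cd3g*, 250 bases, minus), chr9:44981536-44981768 (*Cd3d*, 233 bases, plus) and chr9:45009664-45009861 (*Cd3e*, 198 bases, minus).
Cd3g: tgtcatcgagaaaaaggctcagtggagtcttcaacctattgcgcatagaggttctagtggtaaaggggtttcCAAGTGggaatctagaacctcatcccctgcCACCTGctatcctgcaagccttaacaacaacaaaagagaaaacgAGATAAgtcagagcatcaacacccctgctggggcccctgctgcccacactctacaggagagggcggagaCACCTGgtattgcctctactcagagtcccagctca
Cd3d: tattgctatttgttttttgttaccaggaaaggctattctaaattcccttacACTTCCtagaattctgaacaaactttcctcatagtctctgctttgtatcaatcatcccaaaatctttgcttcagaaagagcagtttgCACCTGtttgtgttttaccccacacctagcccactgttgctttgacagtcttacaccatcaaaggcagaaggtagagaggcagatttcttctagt
Cd3e: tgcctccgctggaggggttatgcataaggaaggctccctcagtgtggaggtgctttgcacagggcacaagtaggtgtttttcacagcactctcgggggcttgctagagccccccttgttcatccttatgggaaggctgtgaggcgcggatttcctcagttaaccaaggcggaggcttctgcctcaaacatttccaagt
The *Cd3g* window held 3 E-box matches and 1 GATA match. The *Cd3d* stretch held 1 E-box and 1 ETS match. The printed *Cd3e* stretch held none, and the full *Cd3e* window of 250 bases held 1 E-box and 1 ETS match that end in the 52 bases not printed, which lie inside the gene. The 17 bases left out for *Cd3d* held no further match. Both strands were searched. The E-box was searched as CANNTG, which 66.2% of 32851 promoter windows of 250 bases in the reference table held at least once. The ETS letters were ACTTCC, held by 19.7% of the windows. For GATA the letters were AGATAA, held by 9.99%. For RUNX they were TGTGGT, held by 14.0% of the windows and by none of the printed stretches. A match is only a run of letters and no factor was measured on it.

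Among the CD3 chains, WT replicate 2 was far above all other libraries, and the remaining WT libraries lay among the labelled *FcγRIIB*-/- libraries. *Cd3d*, the delta chain, was at 0.652, 4.13, 0.347, 0.514 and 1.02 CPM in WT replicates 1 to 5 and at 0.385, 0.370, 0.974 and 0.760 CPM in the labelled replicates 1 to 4. *Cd3e*, the epsilon chain, was at 0.906, 4.49, 0.424, 0.294 and 0.781 CPM in WT and at 0.280, 0.277, 1.06 and 0.557 CPM in the labelled libraries. *Cd3g*, the gamma chain, was at 0.906, 6.74, 1.04, 0.954 and 1.21 CPM in WT and at 0.981, 0.786, 1.19 and 1.11 CPM in the labelled libraries. In each of the 3 genes a single WT library was high and all others overlapped between the groups. WT replicate 2 was 7.09-fold, 7.46-fold and 6.76-fold above the median of the other WT libraries for *Cd3d*, *Cd3e* and *Cd3g*.

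No CD3 chain passed the test between the labels. The log2 fold change, labelled *FcγRIIB*-/- over WT, was -1.09 for *Cd3d* (SE 0.72, edgeR adjusted p = 0.263), -1.33 for *Cd3e* (SE 0.81, adjusted p = 0.224) and -1.08 for *Cd3g* (SE 0.64, adjusted p = 0.213). Without WT replicate 2 these values became -0.02 (SE 0.42, adjusted p = 0.978), -0.14 (SE 0.50, adjusted p = 0.858) and 0.00 (SE 0.22, adjusted p = 0.996). The negative values of the 3 chains thus rested on 1 of the 5 WT libraries. Counts outside that library were low, from 6 to 31 across the 3 genes, which limits what difference these libraries could show. The gene model of *Cd3e* also overlaps an antisense transcript, and the strand setting of the counting was not given in the sources used here.

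*Cd247*, which encodes the zeta chain, behaved differently from the CD3 chains in one respect. It was at 2.54, 5.82, 2.20, 2.68 and 0.820 CPM in WT and at 2.49, 1.89, 1.57 and 2.23 CPM in the labelled libraries, with WT replicate 2 highest and WT replicate 5 lowest. WT replicate 2 was only 2.46-fold above the median of the other WT libraries, the smallest excess among the 10 genes. The log2 fold change was -0.45 (SE 0.43, adjusted p = 0.445), and 0.01 without WT replicate 2 (SE 0.33, adjusted p = 0.987). Exons of *Cd247* overlap the opposite-strand gene *Pou2f1*, so its count is uncertain where strand was not used.

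Of the coreceptor genes, *Cd4* was the one gene of the set that fell past the threshold in the labelled libraries. *Cd4* was at 5.43, 20.7, 4.66, 5.36 and 11.7 CPM in WT and at 3.22, 2.82, 3.94 and 4.76 CPM in the labelled libraries. WT replicates 2 and 5 were high, and the groups overlapped by 1 pair, labelled replicate 4 above WT replicate 3. The mean was 9.57 ± 6.84 CPM in WT (SD, n = 5) and 3.69 ± 0.855 CPM in the labelled libraries (SD, n = 4). The log2 fold change was -1.38 (SE 0.45, edgeR adjusted p = 0.0363). Without WT replicate 2 it was -0.87 (SE 0.31, adjusted p = 0.0561), or -0.89 with no filter on low counts as well (SE 0.29, adjusted p = 0.0488). Without both WT replicates 2 and 5 it was -0.47 (SE 0.19, adjusted p = 0.114). The call was also lost without any 1 of WT replicate 5 or the 4 labelled libraries, with adjusted p from 0.0541 to 0.0895, while the fold change kept its sign.

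*Cd8a*, the alpha chain of CD8, was at 0.471, 3.53, 0.501, 0.661 and 0.390 CPM in WT and at 0.315, 0.370, 0.466 and 0.507 CPM in the labelled libraries. Again WT replicate 2 alone was high, 7.26-fold above the median of the other WT libraries. The log2 fold change of *Cd8a* was -1.42 (SE 0.71, adjusted p = 0.147), and -0.29 without WT replicate 2 (SE 0.29, adjusted p = 0.491).

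*Cd8b1*, the beta chain that pairs with the alpha chain on conventional cytotoxic T cells, had the fewest counts. They were 5, 59, 10, 4 and 9 in WT and 1, 2, 3 and 0 in the labelled libraries. Every WT library lay above every labelled library, with or without WT replicate 2, and this was the 1 gene of the 10 whose groups did not overlap. The gap was narrow, with 0.147 CPM in WT replicate 4 and 0.127 CPM in labelled replicate 3. Over all 16329 genes tested, 17.5% had every WT library above every labelled one, and 19% without WT replicate 2. *Cd8b1* is not among those tested genes. Of the 9 tested genes of the set, 0 had this order, with or without WT replicate 2. The opposite order, every WT library below, was found in 0 of the 10 genes, against 12.1% of all tested genes and 13.2% without WT replicate 2. The gene fell below the filter on low counts and had no test among all genes in the main fit. Scaled to library size, the pooled count was 10.3 times higher in WT (95% exact interval 4.56 to 28.9, counting error only), and 4.10 times higher without WT replicate 2 (1.67 to 12.1). Fitted without the filter, its log2 fold change was -3.31 (SE 1.03, edgeR adjusted p = 0.0379), and -1.97 when WT replicate 2 was also left out (SE 0.68, adjusted p = 0.0629).

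*Cd28*, the costimulatory receptor, was at 1.41, 4.57, 1.12, 1.65 and 1.76 CPM in WT and at 1.68, 0.878, 1.40 and 1.62 CPM in the labelled libraries. Outside WT replicate 2 the groups covered nearly the same range. The log2 fold change was -0.58 (SE 0.41, adjusted p = 0.296), and -0.07 without that library (SE 0.26, adjusted p = 0.859).

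The kinase genes were lower on average in the labelled libraries without passing the test. *Lck*, the kinase that phosphorylates the CD3 and zeta chains, was at 2.61, 10.7, 1.81, 2.72 and 2.07 CPM in WT and at 1.16, 1.02, 2.46 and 1.42 CPM in the labelled libraries. Labelled replicate 3 alone reached into the WT range. The log2 fold change of *Lck* was -1.39 (SE 0.56, edgeR adjusted p = 0.0788), and -0.59 without WT replicate 2 (SE 0.29, adjusted p = 0.151). *Zap70*, the kinase that docks on the phosphorylated chains, was at 1.20, 3.97, 1.04, 0.881 and 1.17 CPM in WT and at 0.736, 0.832, 0.678 and 1.27 CPM in the labelled libraries, where replicate 4 passed 4 WT libraries. Its log2 fold change was -0.92 (SE 0.47, adjusted p = 0.159), and -0.29 without WT replicate 2 (SE 0.26, adjusted p = 0.429).

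**Figure D1:**
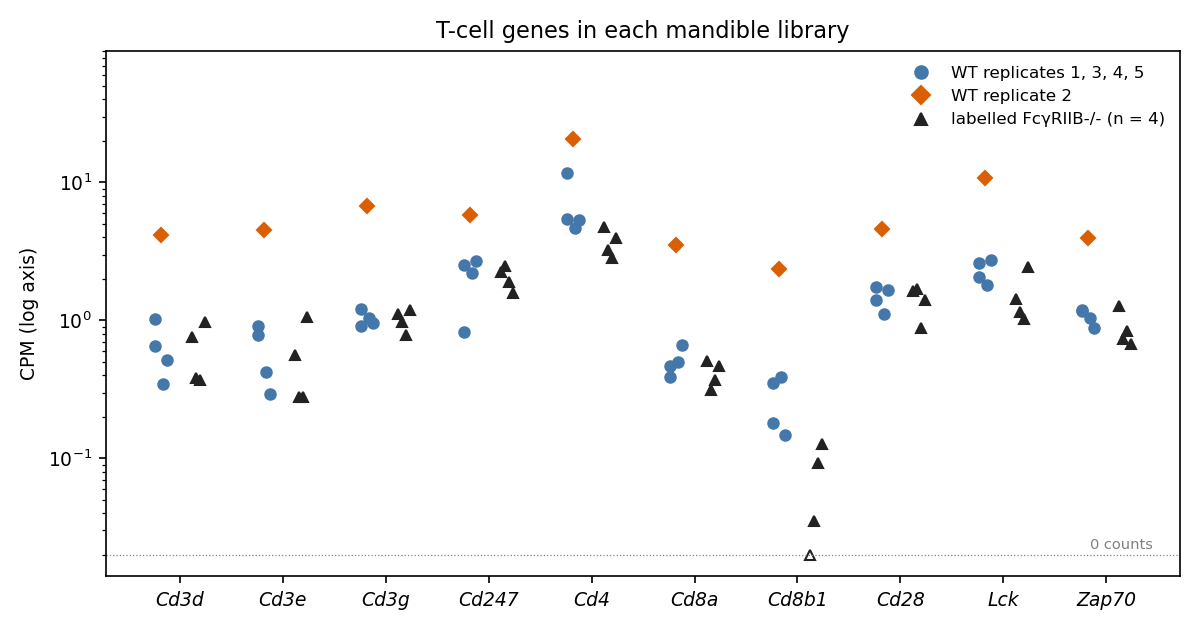
Level of each of the 10 genes in each library, in CPM on a log axis, with WT replicate 2 as a diamond, the other 4 WT libraries as circles and the 4 labelled FcγRIIB-/- libraries as triangles. The diamond is the highest point of every gene, at 20.7 CPM for Cd4 and 2.37 CPM for Cd8b1, and an open triangle at the foot marks the 1 library with 0 counts of Cd8b1.

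Counted over the set, 1 of the 9 genes tested fell and 0 rose with all 9 libraries, against 19.3% of all tested genes called lower and 14% called higher. With WT replicate 2 left out, edgeR called 0 of 9 lower and 0 higher, against 16% and 12.9% of 16222 genes. At an unadjusted p under 0.05, 2 genes were lower with all libraries (*Cd4* and *Lck*) and 1 without WT replicate 2 (*Cd4*), against 24.1% and 21.4% of all tested genes. At that threshold 0 were higher in either fit, against 20.2% and 20.6%. DESeq2 called 3 genes lower (*Cd4*, *Lck* and *Cd8b1*) and 0 higher, against 17.9% and 14.9% of all genes it tested. Leaving out the filter gave 2 of 10 lower (*Cd4* and *Cd8b1*), against 14.2% of 21948 genes. Leaving out WT replicates 2 and 5 together gave 0 lower and 0 higher, against 12.6% and 9.04% of all genes. The median log2 fold change of the 9 genes was -1.09, beside 0.01 over all tested genes, and moved to -0.14 without WT replicate 2. All 9 values were negative with every library and 77.8% without WT replicate 2, beside 49.4% and 46.9% of all tested genes.

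**Figure D2:**
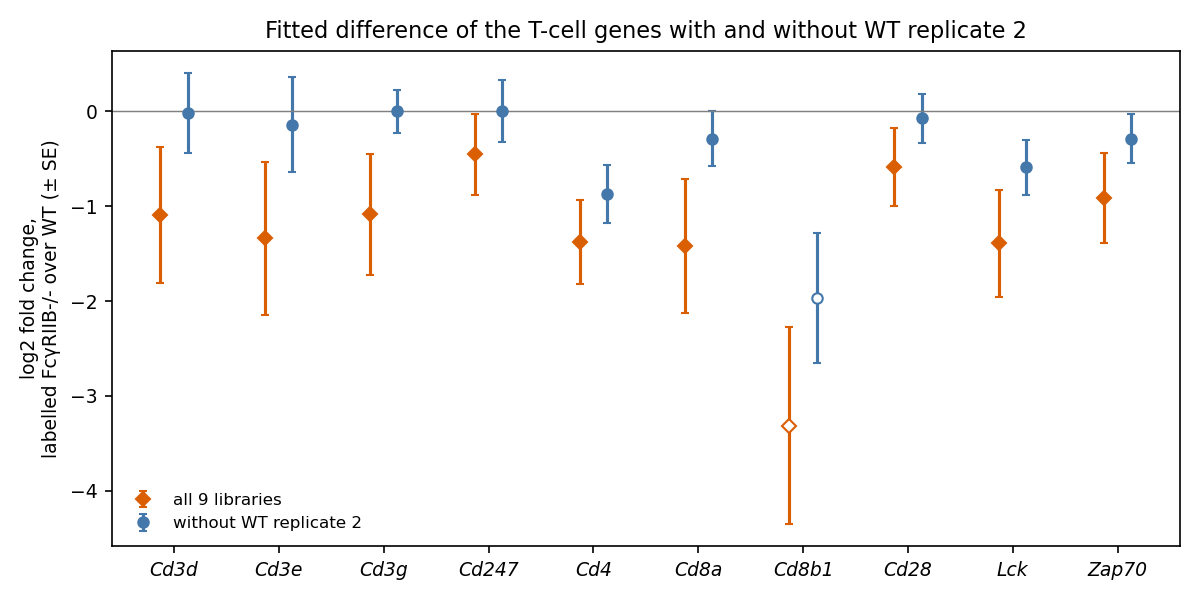
Log2 fold change, labelled FcγRIIB-/- over WT, of each gene with all 9 libraries and without WT replicate 2, with bars of 1 SE, and Cd8b1 as open points from the fits without the filter on low counts. With all libraries the tested genes lie between -1.42 and -0.45, and without WT replicate 2 they lie between -0.87 and 0.01.

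WT replicate 2 held the highest level of all 9 libraries in 10 of the 10 genes, while it was highest in 14.1% of all tested genes. The excess over the median of the other WT libraries ranged from 2.46-fold for *Cd247* to 8.89-fold for *Cd8b1*, with 3.84-fold for *Cd4*, 4.58-fold for *Lck*, 2.99-fold for *Cd28* and 3.59-fold for *Zap70*. The summed level of the 10 genes was 67.1 CPM there, against 13.5 to 21.2 CPM in the other WT libraries and 9.33 to 14.2 CPM in the labelled libraries. The other WT libraries and the labelled libraries thus overlapped in the sum, by 1 WT library and 2 labelled ones.

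Per kilobase of exon (union of GENCODE M21 exons), the genes could be ordered by level over the 8 libraries other than WT replicate 2. *Cd4* had the highest median, 1.17 CPM per kilobase (range 0.699 to 2.89), followed by *Lck* at 0.663 (0.347 to 0.927) and *Cd247* at 0.415 (0.154 to 0.503). *Cd3d* and *Zap70* were level at 0.321, with *Cd3g* at 0.309 and *Cd28* at 0.248. *Cd8a* at 0.129, *Cd3e* at 0.120 and *Cd8b1* at 0.0924 were the lowest. The place of *Cd8b1* depended on the group: in the 4 other WT libraries its median was 0.180, above *Cd3e* at 0.148 and *Cd8a* at 0.134, and in the labelled libraries it was 0.0430, below *Cd3e* at 0.103 and *Cd8a* at 0.115. The ranges of every pair of neighbours in this order overlapped. Among the CD3 chains, which are assembled together in the receptor, *Cd3e* had a lower median per kilobase than *Cd3d* and *Cd3g*, with overlapping ranges. In CPM, *Cd3e* (0.277 to 1.06) and *Cd3d* (0.347 to 1.02) were alike, and their exon lengths were 4080 and 1815 bases. The order thus depends on these lengths, which need not match the annotation used for counting.

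Ratios between genes within a library do not depend on how libraries are scaled. They were computed as log2 ratios of counts with 0.5 added, and compared by a two-sided exact permutation test over the 126 splits of 9 libraries (smallest possible p = 0.00794), with adjusted p over the 4 ratios. Without WT replicate 2, 4 libraries remain in each group and the smallest possible p of this test is 0.0286. None of the 4 passed after adjustment.

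The balance of the coreceptors, *Cd4* to *Cd8a*, was 3.40 ± 0.869 in WT (SD, n = 5) and 3.08 ± 0.186 in the labelled libraries (SD, n = 4), a difference of -0.32 (exact permutation p = 0.651, adjusted p = 0.651). WT replicate 5 was highest at 4.83 and WT replicate 2 lowest at 2.55. The CD8 chain ratio, *Cd8b1* to *Cd8a*, was -0.88 ± 0.778 in WT and -2.63 ± 1.25 in the labelled libraries, a difference of -1.75 (exact permutation p = 0.0317, adjusted p = 0.0635). WT replicate 4, at -2.04, lay below labelled replicates 2 and 3 at -1.77 and -1.72, so the groups overlapped. The lowest value, -4.39 in labelled replicate 4, came from a *Cd8b1* count of 0 and is set by the 0.5 added. With 2 added to each count the difference was -1.02 (exact permutation p = 0.0556, adjusted p = 0.111). The CD8 chain difference was -1.67 without WT replicate 2 (exact permutation p = 0.0857, adjusted p = 0.171).

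Relative to *Ptprc*, which encodes CD45 of all leukocytes, *Cd3e* was at -6.26 ± 1.01 in WT and -5.99 ± 0.584 in the labelled libraries, a difference of 0.27 (exact permutation p = 0.643, adjusted p = 0.651), and 0.66 without WT replicate 2 (adjusted p = 0.190). *Ptprc* itself was lower in the labelled libraries, with a log2 fold change of -1.16 (SE 0.28, edgeR adjusted p = 0.0110), and -0.88 without WT replicate 2 (SE 0.21, adjusted p = 0.0126). Relative to *Cd79a*, a chain of the B-cell receptor, *Cd3e* was -3.07 ± 0.745 in WT and -1.22 ± 0.517 in the labelled libraries. The difference was 1.85 (exact permutation p = 0.0159, adjusted p = 0.0635), with every labelled library above every WT library, and 2.08 without WT replicate 2 (exact permutation p = 0.0286, adjusted p = 0.114). The p of 0.0286 is the smallest the test can give with 4 libraries in each group. *Cd79a* fell, with a log2 fold change of -2.74 (SE 0.58, edgeR adjusted p = 0.00567), and -2.16 without WT replicate 2 (SE 0.42, adjusted p = 0.00499).

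**Figure D3:**
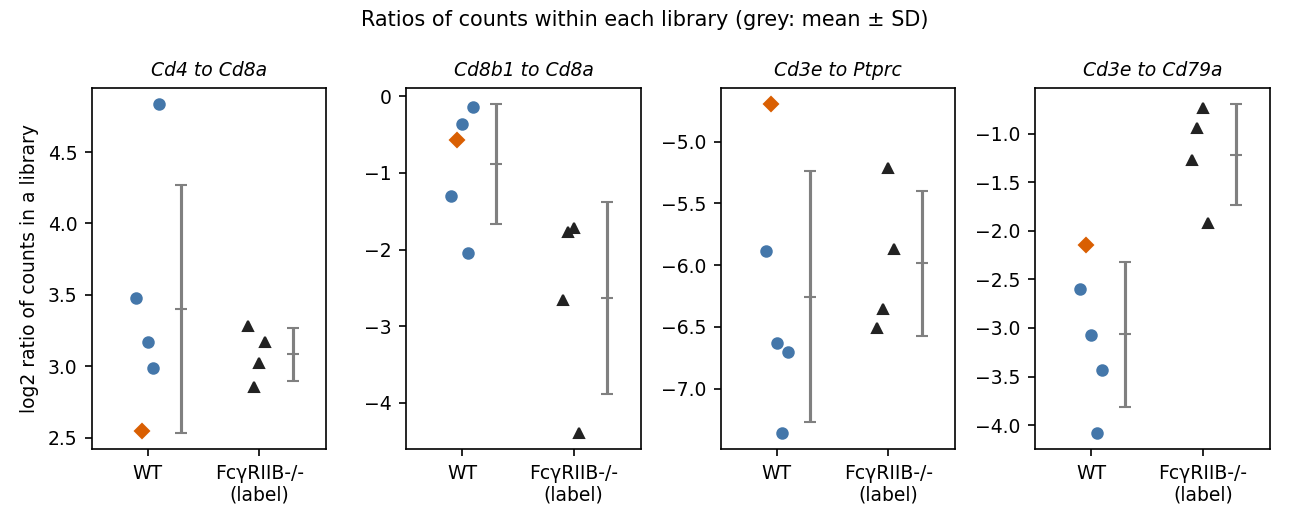
Within-library log2 ratios of counts in each library, with WT replicates 1, 3, 4 and 5 as circles, WT replicate 2 as a diamond, labelled FcγRIIB-/- libraries as triangles and the group mean ± SD in grey. The Cd3e to Cd79a ratio is the one panel in which every labelled library lies above every WT library, with means of -1.22 and -3.07.

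The constant regions of the receptor itself were represented by 4 genes matched in the table. By edgeR 0 of the 4 passed the test in either direction, and 0 had an unadjusted p under 0.05 or passed by DESeq2. Over all tested genes, edgeR called 19.3% lower and 14% higher. At an unadjusted p under 0.05 the shares were 24.1% and 20.2%, and by DESeq2 17.9% and 14.9%. *Trac*, the alpha constant region, was at 2.32, 8.63, 1.31, 1.62 and 1.41 CPM in WT and at 1.61, 1.39, 2.71 and 1.52 CPM in the labelled libraries, with a log2 fold change of -0.75 (SE 0.57, adjusted p = 0.334) that became 0.14 without WT replicate 2 (SE 0.28, adjusted p = 0.740). *Trbc2*, a beta constant region, had 0.09 (SE 0.21, adjusted p = 0.766), and 0.28 without that library (SE 0.18, adjusted p = 0.282). *Trdc*, the delta constant region of gamma-delta T cells, had -0.18 (SE 0.38, adjusted p = 0.745), which turned to 0.33 (SE 0.21, adjusted p = 0.269). WT replicate 2 was highest in 4 of 4 of these genes. Their median was -0.46, and 0.25 without that library.

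Downstream of the receptor, 10 of 18 tested adaptors, kinases and brakes fell and 0 rose, against 19.3% and 14% of all tested genes. Leaving out WT replicate 2, 9 of 17 fell, against 16% of all tested genes. *Ubash3a*, a phosphatase-family brake on receptor signalling, had counts of 26, 50, 26, 37 and 64 in WT and 2, 0, 7 and 4 in the labelled libraries. It thus passed the filter on low counts through the WT group alone. Its log2 fold change was -3.43 (SE 0.58, adjusted p = 0.00219). *Grap2*, an adaptor that binds Lat and Lcp2, fell by 1.97 on the log2 scale (SE 0.31, adjusted p = 0.00160). *Lat*, the membrane adaptor phosphorylated by Zap70, was at 3.97 to 10.6 CPM in WT and 1.62 to 3.09 CPM in the labelled libraries, with a log2 fold change of -1.42 (SE 0.30, adjusted p = 0.00569). *Rasgrp1*, which activates Ras after receptor engagement, fell by 1.29 (SE 0.23, adjusted p = 0.00268).

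*Ubash3a*, *Grap2*, *Lat* and *Rasgrp1* kept their calls without WT replicate 2, with log2 fold changes of -3.31, -1.80, -1.11 and -1.20. Every WT library lay above every labelled one in 9 of the 18 tested genes of this list, these 4 among them, against 17.5% of all tested genes, and in 9 of 17 without WT replicate 2, against 19%. *Ubash3a* is among the tested genes only through its WT libraries, so its lack of overlap is not separate support. *Lat* and *Grap2* are also used by platelets and mast cells, so they do not mark T cells alone. The most abundant members that did not pass, *Plcg1* (-0.11), *Cblb* (-0.10) and *Bcl10* (-0.09), are broadly expressed and had adjusted p of 0.178, 0.335 and 0.280. The median of this list was -0.86, and -0.32 without WT replicate 2.

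Of T-cell surface and costimulatory receptors, 5 of 14 tested genes fell and 0 rose, against 19.3% and 14% of all tested genes. Without WT replicate 2, 5 of 13 fell and 0 rose, against 16% and 12.9%. *Il7r*, the interleukin-7 receptor alpha chain, had a log2 fold change of -1.52 (SE 0.34, adjusted p = 0.00715), *Il2rb*, an interleukin-2 and interleukin-15 receptor chain, -1.87 (SE 0.58, adjusted p = 0.0316), and *Cd2*, an adhesion receptor, -1.84 (SE 0.63, adjusted p = 0.0442). Leaving out WT replicate 2, the values were -1.23, -1.19 and -0.94, with adjusted p of 0.00922, 0.0440 and 0.0422. *Il7r* is also carried by early B cells, and B-lineage markers were lower in the same libraries. The part of B cells in the *Il7r* values was not tested. Members that did not pass included *Ccr7* (-1.32, adjusted p = 0.0859), *Il2rg* (-0.38, adjusted p = 0.247) and *S1pr1* (-0.10, adjusted p = 0.567), which moved to -0.56, -0.13 and 0.01 without that library (adjusted p of 0.174, 0.610 and 0.974).

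Among T-lineage transcription factors, 2 of 10 tested genes fell and 1 rose with all 9 libraries, against 19.3% and 14% of all tested genes. Without WT replicate 2, 1 of 8 fell and 0 rose, against 16% and 12.9%. *Eomes*, a factor of effector T and natural killer cells, had counts of 14, 22, 11, 15 and 10 in WT and 2, 2, 4 and 8 in the labelled libraries, so it passed the filter on low counts through the WT group alone. Its log2 fold change was -1.62 (SE 0.48, adjusted p = 0.0255), and -1.40 with no filter and WT replicate 2 left out (SE 0.51, adjusted p = 0.0738). *Zbtb7b*, which directs CD4 lineage choice and is broadly expressed elsewhere, had -0.33 (SE 0.09, adjusted p = 0.0158), and -0.32 without WT replicate 2 (SE 0.10, adjusted p = 0.0330). The abundant factors *Bcl11b* (-0.04), *Runx3* (-0.04) and *Tcf7* (-0.16) did not pass, with adjusted p of 0.804, 0.664 and 0.379. Across the 9 libraries they lay between 21.6 and 44.7 CPM.

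Cytotoxic and natural killer genes, which share Zap70, Lck and zeta with T cells, gave 2 of 5 and 2 of 3 tested genes lower, against 19.3% of all tested genes. With WT replicate 2 left out the counts were 2 of 4 and 1 of 3, against 16%. *Nkg7*, a granule protein, had a log2 fold change of -2.21 (SE 0.45, adjusted p = 0.00458), and *Klrd1*, a lectin-like receptor of natural killer cells, -1.16 (SE 0.28, adjusted p = 0.0103). Both kept their calls without WT replicate 2 (adjusted p of 0.00862 and 0.0191). *Klrk1* had -1.17 (SE 0.40, adjusted p = 0.0430), and its call was lost without that library (adjusted p = 0.0836). The other tested genes of the 2 lists did not pass. *Gzmm* (0.23, adjusted p = 0.545) and *Gzmb* (0.18, adjusted p = 0.823) were above 0. *Ccl5* (-0.60, adjusted p = 0.427) moved to 0.03 without WT replicate 2, and *Klrb1c* (-0.96, adjusted p = 0.203) to -1.04.

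Markers of other cells moved with both patterns. In WT replicate 2 the summed plasma cell markers reached 1257 CPM against 498 to 579 CPM in the other WT libraries, and the B-lineage markers 113 against 45.4 to 63.4 CPM. The natural killer markers were at 10.6 against 5.20 to 6.24 CPM, whereas muscle markers were lowest there at 6432 CPM and neutrophil markers, at 1385 CPM, lay inside the WT range of 1128 to 3400 CPM. Leukocyte genes were at 556 against 257 to 466 CPM in the other WT libraries, and macrophage markers at 659 against 419 to 636 CPM. Epithelium markers were at 5504 against 7915 to 19942 CPM, and bone and tooth markers at 81249 against 51198 to 69691 CPM. Between the labels, 8 of 9 B-lineage, 10 of 10 neutrophil, 7 of 7 erythroid and 6 of 7 leukocyte genes fell, and 4 of 8 muscle genes rose. Plasma cell markers gave 1 of 5 lower, macrophage markers 6 of 10 lower, and keratinized epithelium markers 6 of 8 lower and 1 higher. Over all tested genes, 19.3% were called lower and 14% higher. B-lineage sums were 14.6 to 32.9 CPM and leukocyte sums 133 to 204 CPM in the labelled libraries, below every WT library (257 to 556 CPM for leukocyte genes). With WT replicate 2 left out, the B-lineage, neutrophil and erythroid counts were again 8, 10 and 7, and the leukocyte count 5. The share of all tested genes called lower was then 16%. The part of these cells in the values of the T-cell genes was not tested.

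**Figure D4:**
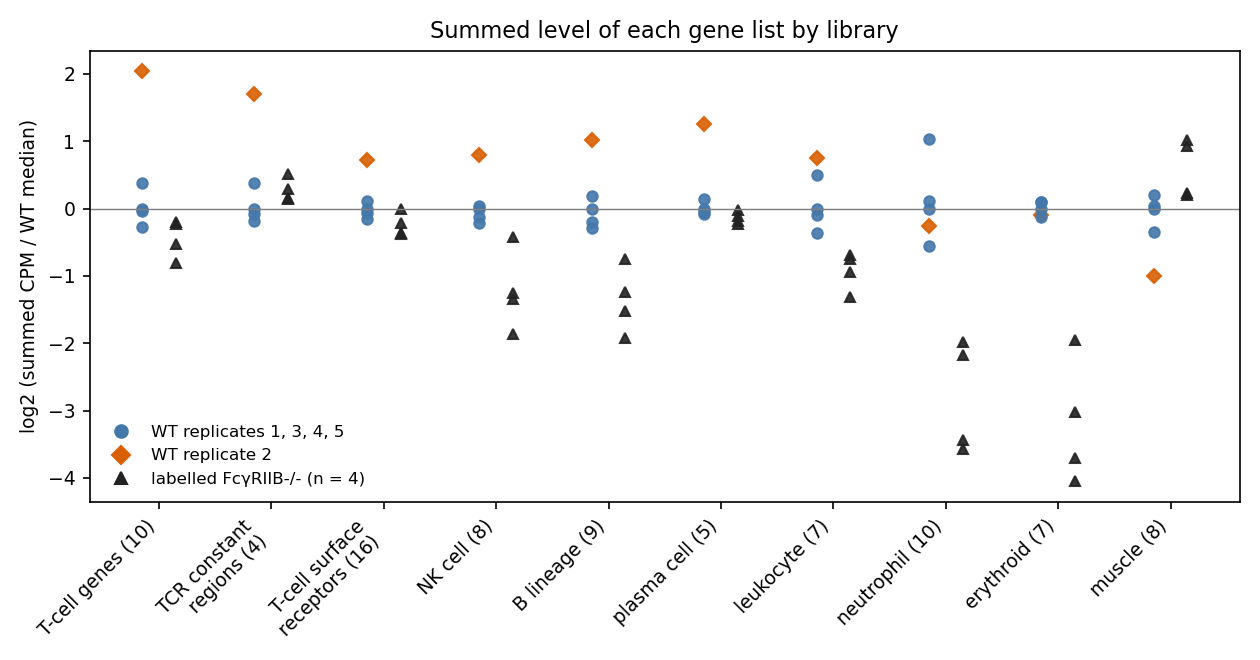
Summed CPM of each gene list in each library, as the log2 of its ratio to the median of the 5 WT libraries, with WT replicate 2 as a diamond, other WT libraries as circles and labelled FcγRIIB-/- libraries as triangles. WT replicate 2 is highest in the lists of the receptor complex (67.1 CPM), receptor constant regions (23.3 CPM), B-lineage (113 CPM) and plasma cell markers (1257 CPM). It is also highest in T-cell surface (243 CPM), natural killer (10.6 CPM) and leukocyte genes (556 CPM), and lowest of all 9 libraries in the muscle list (6432 CPM).

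The genes most like the CD3 chains were sought over the 9 libraries among 15145 candidates, as the Pearson r of log2 CPM with the mean of *Cd3d*, *Cd3e* and *Cd3g* after group means were removed. The 8 highest were *Cd2* (0.983), *Nfkbie* (0.982), *Cr2* (0.976), *Gimap3* (0.973), *Cd22* (0.971), *Snx20* (0.970), *Slamf6* (0.970) and *Cfb* (0.968). Each r compares genes of the same 9 libraries and is given as a description. Without WT replicate 2 the values were 0.907, 0.901, 0.862, 0.908, 0.848, 0.844, 0.933 and 0.826 in the same order. *Cd2* and *Slamf6* are carried by T cells and by other lymphocytes, and *Cr2* and *Cd22* mainly by B cells.

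By the same measure, the other tested genes of the complex ranged from 0.469 for *Cd247* to 0.935 for *Lck*. Without WT replicate 2, *Cd4* (0.725) and *Lck* (0.682) kept the highest values, *Cd28* was at 0.437, *Zap70* at 0.247 and *Cd8a* at 0.09, and *Cd247* was at -0.57. The likeness of *Cd8a*, *Zap70* and *Cd247* to the CD3 chains therefore rested largely on that library.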

How the data were processed

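The authors pulverized whole mandibles with teeth, prepared stranded poly(A) libraries, trimmed reads with Trim Galore, aligned them to mm10 with HISAT 02.1.0 and assigned them to genes with featureCounts. The deposited values used here are raw counts per gene. The annotation, strand setting and treatment of multimapping reads were not given in the sources used here. One library was made per mouse. 1 further per-sample column matched no sample and was not used.

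Counts were tested with edgeR 4.0.16 (R 4.3.3): filterByExpr (minimum count 10), TMM, quasi-likelihood test, Benjamini-Hochberg over 16329 genes at 0.05. CPM used TMM-normalized library sizes. Likeness used log2 CPM with a prior count of 2. Alternatives were DESeq2 1.42.0, other scalings, no filter, a replicate block and leaving out each library. Leaving out WT replicates 2 and 5 together, or WT replicate 2 with no filter, was chosen after seeing the data. The members and lists were chosen with earlier results of these data known. From each list up to 4 called genes with the largest change and up to 3 other abundant genes were eligible to be named. Some genes of these lists are counted but not reported here by name. Total counts, in ranges, limit precision, and intervals cover counting error only. The scripts were tested on simulated data.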

Additional observations from a re-analysis of the deposited data

Results flagged for a closer look

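Of 70 groups of values checked, 21 held a highest or lowest library far from the others of its group, and 19 of these were WT replicate 2 at the top. For independent groups of normally distributed values the rule marks about 1 in 20 by chance. Here single genes and sums that hold them are read from the same libraries, so that rate does not apply to the 21 marks. In WT replicate 2 the marked levels of the receptor complex were 4.13 CPM for *Cd3d*, 4.49 for *Cd3e*, 6.74 for *Cd3g*, 3.53 for *Cd8a*, 2.37 for *Cd8b1*, 4.57 for *Cd28*, 10.7 for *Lck* and 3.97 for *Zap70*, with a sum over all 10 genes of 67.1 CPM. The next WT library was at 1.02, 0.906, 1.21, 0.661, 0.386, 1.76, 2.72, 1.20 and 21.2 CPM. *Cd4* and *Cd247* were highest in the same library without being marked.

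The same library was marked for *Trac* (8.63 CPM), *Cd2* (6.10), *Ms4a1* (16.3), *Jchain* (659) and *Fcgr2b* (38.3), and for the sums of receptor constant regions (23.3), T-cell surface genes (243), natural killer markers (10.6), B-lineage markers (113) and plasma cell markers (1257 CPM). Among the libraries labelled *FcγRIIB*-/-, replicate 3 was marked for *Trac* (2.71 CPM, next 1.61) and replicate 4 for *Fcgr2b* (32.1 CPM, next 26.6). The cause of these values was not tested.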

How the results depend on the processing

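Genes of the complex called lower numbered 1 of 9 with all libraries, against 19.3% of all tested genes. They numbered 2 of 10 with no filter, against 14.2%, and 3 by DESeq2, against 17.9%. With the replicate block they numbered 0, where 2410 of 16329 genes were lower. With each library left out in turn they numbered 0 to 1, where 2521 to 2771 of all genes were lower. Without WT replicates 2 and 5 they numbered 0, against 12.6%. With no filter and WT replicate 2 left out, 1 was called lower (*Cd4*), where 2791 of all genes were lower. Over all genes, 1309 were higher with library totals only, and 1479 higher and 2066 lower without WT replicates 2 and 5. *Cd4* lost its call, at a log2 fold change of -0.99 (adjusted p = 0.142) under the replicate block, where WT replicate 5 has no partner and adds nothing. With each library left out it ranged from -1.54 to -0.87 (adjusted p from 0.0229 to 0.0895). *Cd8b1*, fitted with no filter, was -1.97 (adjusted p = 0.0629) with WT replicate 2 also left out. *Cd4* was -0.89 in that fit and kept its call (adjusted p = 0.0488). *Lck* passed by DESeq2 (-1.38, adjusted p = 0.0266), as did *Cd8b1* (-3.40, adjusted p = 0.00573), and DESeq2 gave *Cd3g* and *Cd8a* no adjusted p. With each library left out, *Cd3g* ranged from -1.26 to 0.00176 and *Cd247* from -0.67 to 0.00911, both turning sign without WT replicate 2. The sign also turned for *Cd3d* (0.30), *Cd3e* (0.0127), *Cd3g* (0.0951) and *Cd28* (0.0253) without WT replicates 2 and 5.

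With each library left out, the ratio differences ranged from -0.53 to 0.0382 for *Cd4* to *Cd8a* (0.0382 without WT replicate 5, and 0.0382 with the replicate block, which drops that library), from -2.06 to -1.17 for *Cd8b1* to *Cd8a*, from -0.00587 (without WT replicate 4) to 0.66 for *Cd3e* to *Ptprc*, and from 1.59 to 2.08 for *Cd3e* to *Cd79a*. With no constant added, *Cd3e* to *Cd79a* was 1.85 and passed (adjusted p = 0.0476 over the 3 ratios that could be formed). Same-numbered libraries come from different mice. Their deviations correlated at 0.0969, 0.0276, -0.114 and -0.0739, with 0 of 4 labelled libraries best matched to its own number. These values gave no sign of pairing by number, and a batch shared by number was not tested. Counts of 0 to 31 outside WT replicate 2 for the CD3 and CD8 beta genes limit what could be detected. The cause of the changes was not tested.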

Other observations

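Dendritic cell markers moved in both directions. Of 9 genes tested, 5 fell and 2 rose in the libraries labelled *FcγRIIB*-/-, against 19.3% and 14% of all tested genes. Without WT replicate 2, 4 fell and 2 rose, against 16% and 12.9%. *Siglech*, a receptor of plasmacytoid dendritic cells, had a log2 fold change of -1.67 (SE 0.34, edgeR adjusted p = 0.00463), and *Ccr9*, a chemokine receptor, -1.74 (SE 0.34, adjusted p = 0.00378). *Flt3*, the growth factor receptor of dendritic cell progenitors, had -1.30 (SE 0.31, adjusted p = 0.0106). Without WT replicate 2 the values were -1.64, -1.63 and -1.07 (adjusted p of 0.00813, 0.00881 and 0.0180). The 2 genes that rose, named after their values were seen, were *Bst2* (0.45, SE 0.09, adjusted p = 0.00383) and *Tcf4* (0.29, SE 0.08, adjusted p = 0.0195). Both are used by plasmacytoid dendritic cells and by many other cells, and without WT replicate 2 they were at 0.50 and 0.29 (adjusted p of 0.00395 and 0.0251). Some dendritic cells carry *Cd4* and *Cd8a*, and the part of this in the values of those genes was not tested.

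A few low-count regulatory genes, named after their values were seen, also peaked in WT replicate 2. *Foxp3*, the factor of regulatory T cells, had counts of 3, 46, 3, 1 and 6 in WT and 2, 1, 12 and 3 in the labelled libraries. *Ctla4*, an inhibitory receptor that competes with CD28, had 16, 78, 12, 8 and 4 in WT and 2, 2, 2 and 5 in the labelled libraries. Both were below the filter on low counts and had no test in the main fit.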
